A study of Triticum urartu with 18 samples.

Results

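Endosperm taken late in grain filling, 25 days post anthesis (DPA), was compared with flag leaf in Triticum urartu, the wild diploid wheat related to the donor of the A genome of bread wheat. The comparison uses 6 of the 18 RNA-Seq libraries of the series, chosen by tissue and stage: 3 of endosperm at 25 DPA and 3 of flag leaf at 10 DPA. Both groups came from untreated wild-type plants of accession PI 428198, and the labels state that replicates were biological and independent. Embryo, aleurone, seed coat and pericarp had been taken off the endosperm. The leaf was sampled 15 days earlier than the endosperm, so tissue and stage differ together and cannot be told apart. Endosperm of 10 DPA, with 3 libraries, was brought in as the stage at which the leaf was taken. Library numbers below are column numbers of the deposited table and do not name a particular plant.

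The starchy endosperm is the storage tissue of the cereal grain. Its cells import sucrose, turn it into starch through a cytosolic ADP-glucose pathway that leaf cells lack, and lay down prolamins, the gliadins and glutenins of gluten. Late in filling these cells undergo programmed death while their reserves stay in place. The flag leaf is the uppermost leaf and a main source of the sugar that fills the grain, and it makes transitory starch in chloroplasts and exports sucrose.

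Levels are in FPKM, fragments scaled to transcript length and to the mapped fragments of the library, and the depth in reads is unknown. The 25 DPA libraries were unlike each other: the number of genes above 0 was 10644 in library 1, 17135 in library 2 and 17237 in library 3, and the 20 most abundant genes took 95.7%, 61.0% and 63.9% of the total FPKM. In these measures library 1 lay near the 20 DPA endosperm libraries, which had 9328 to 11010 genes above 0 and 94.4% to 95.1% in their 20 most abundant genes, and its total of 3605504 FPKM was close to their 3556315 to 3596339, against 1845514 and 1874718 in 25 DPA libraries 2 and 3. Whether it matches its label was not tested. Leaf libraries 1, 2 and 3 had 14533, 17429 and 17866 genes above 0, with 78.4%, 53% and 48.2% of the total in their 20 most abundant genes. Library 1 was the lowest of the 25 DPA libraries in 79.8% of the 14891 genes tested, and its share in the results below was examined by leaving it out. Spearman correlations over genes ran from 0.697 to 0.845 within 25 DPA, from 0.845 to 0.908 within leaf and from 0.448 to 0.59 between the tissues. The markers fixed for each tissue were read for the labels. Of 27 endosperm markers (the prolamins, the cytosolic ADP-glucose pyrophosphorylase subunits, TuGBSSI, TuSBEIIb, TuSSIIa and TuWPBF), 25 were tested and 24 were higher at 25 DPA (against 3.8% of all genes tested), and their summed FPKM was 13900, 224000 and 37400 in the endosperm against 66.4, 168 and 172 in leaf. Of 4 leaf starch markers 1 was lower at 25 DPA (against 25.7% of all genes tested), and their sums were 3.92, 43.5 and 77.0 in endosperm against 65.4, 182 and 176 in leaf. The 5 listed YABBY genes, a family of pericarp and leaf, summed to 0, 2.32 and 0 FPKM at 25 DPA and 3.8, 4.52 and 5.37 in leaf. Only 1 of them passed the filter. Being low in leaf as well, they are a weak check for pericarp. Photosynthesis, aleurone and embryo markers are not annotated in the table, so the presence of those tissues was not tested.

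Over all genes, late endosperm held less than leaf for far more genes than it held more. A gene was called when its adjusted p was under 0.05 (limma on log2(FPKM + 1), Benjamini-Hochberg over all genes tested) and its log2 difference was at least 1 in size. This scale understates the change of low genes. Of 14891 genes tested, 566 were higher in 25 DPA endosperm (3.8%) and 3826 were lower (25.7%). The median log2 difference over all of them was −1.04. Median-ratio scaling sets the typical gene to a common level in every library, over the 7738 genes above 0 in all 6 libraries only. It moved the median over all genes tested by 0.67 to −0.37, and raised the share of calls that were higher from 12.9% to 32.5%. Scaled in this way, 2126 genes were higher (14.8%) and 4407 lower (30.7%). Without 25 DPA library 1, 1954 genes were higher (11.3%) and 3686 lower (21.3%). The count of higher genes was 298, 315 and 340 without leaf library 1, 2 and 3, and the count of lower genes was 2499 without leaf library 2. In bulk tissue, fewer cells of a type and less RNA per cell cannot be told apart, and this holds for every level given here.

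Many of the abundant transcripts of each tissue were low in the other. In leaf, 121 genes averaged at least 1000 FPKM, 0 of them annotated, and 53 of these were under 10 FPKM in every 25 DPA library. Their median was 2290, 3360 and 3140 FPKM in leaf libraries 1, 2 and 3, and 3.75, 10.8 and 19.4 FPKM in 25 DPA libraries 1, 2 and 3. In endosperm, 99 genes averaged at least 1000 FPKM, of which 19 were prolamins and 80 had no annotation. Of these, 58 were under 10 FPKM in every leaf library, and 31 genes were at 1000 FPKM or more in both tissues. These lists were chosen by level in one tissue, so that their members are lower in the other is no test. Listed at 0 in all 25 DPA libraries and at 10 FPKM or more in all leaf libraries were 371 genes, 15 of them transcription factors. The reverse pattern was met by 89 genes, 5 of them transcription factors, and by 261 when only 25 DPA libraries 2 and 3 were required to reach 10 FPKM.

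The extremes in both directions were unannotated. TRIUR3_17017 had 2847, 50894 and 99112 FPKM in 25 DPA libraries 1, 2 and 3 and 0, 2.61 and 0 in leaf. Its log2 difference was 13.95 (limma adjusted p = 1.87e-05). TRIUR3_15929 had 1596, 25559 and 47352 FPKM at 25 DPA and 0 in each leaf library (limma adjusted p = 1.87e-05). Both were highest in library 3 and no endosperm value came near a leaf value. In the other direction TRIUR3_29711 had 1.67, 1.06 and 0 FPKM at 25 DPA against 10093, 16852 and 12213 in leaf, a log2 difference of −12.82. TRIUR3_12282 had 0, 0 and 2.08 FPKM against 4676, 10315 and 7237, a log2 difference of −12.24. Both falls had a limma adjusted p of 1.87e-05. The genes of this paragraph were chosen among those whose groups did not overlap, so their separation is no separate result.

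The storage prolamins were all higher in late endosperm than in leaf. The 21 listed genes comprise 16 gliadins, the monomeric proteins that give dough its viscosity, 3 low molecular weight glutenin subunits and 2 high molecular weight glutenin subunits, which join into the polymers that give it elasticity. All 21 were tested and all 21 were called higher, against 3.8% of all genes, and the same 21 of 21 was found after median-ratio scaling and without 25 DPA library 1. The highest limma adjusted p among them was 0.00127. In leaf 11, 6 and 8 of the 21 were listed at 0 in libraries 1, 2 and 3, and the highest single leaf value was 5.11 FPKM.

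Gli-γ-1, the most abundant of them, had 2586, 53309 and 11310 FPKM in 25 DPA libraries 1, 2 and 3 and 0, 2.02 and 1.91 FPKM in leaf. Its log2 difference of 12.46 was the largest of the family (limma adjusted p = 1.87e-05). The low molecular weight subunit TuA3-538a had 1601, 26163 and 3715 FPKM at 25 DPA against 1.12, 2.58 and 1.19 in leaf, with a log2 difference of 11.04 (limma adjusted p = 2.61e-05). In both genes the lowest endosperm library stood far above the highest leaf library, and library 2 was far above the other two. The high molecular weight subunit TuGlu-1Ax had 684, 13015 and 2102 FPKM at 25 DPA and 0.42, 0.74 and 0.87 in leaf, with a log2 difference of 10.64 (limma adjusted p = 2.63e-05). Its partner TuGlu-1Ay had 403, 5977 and 938 FPKM at 25 DPA and 0.6, 0.36 and 0 in leaf, with a log2 difference of 9.99 (limma adjusted p = 2.77e-05). The x-type subunit was above the y-type subunit in each endosperm library.

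Gli-α-9 was the lowest member, with 11.4, 202 and 24.9 FPKM at 25 DPA and 0, 0 and 1.35 in leaf. Its log2 difference was 4.92 (limma adjusted p = 0.00127), and without leaf library 1 the adjusted p was 0.0529, the only prolamin call lost in any fit that left a library out. Gli-α-10 had 235, 2595 and 249 FPKM at 25 DPA and 0 in each leaf library. It and Gli-α-4 were the 2 prolamins at 0 throughout leaf. Over the other 19 the median log2 difference was 9.89, and over all 21 it was 9.72.

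**Figure D1:**
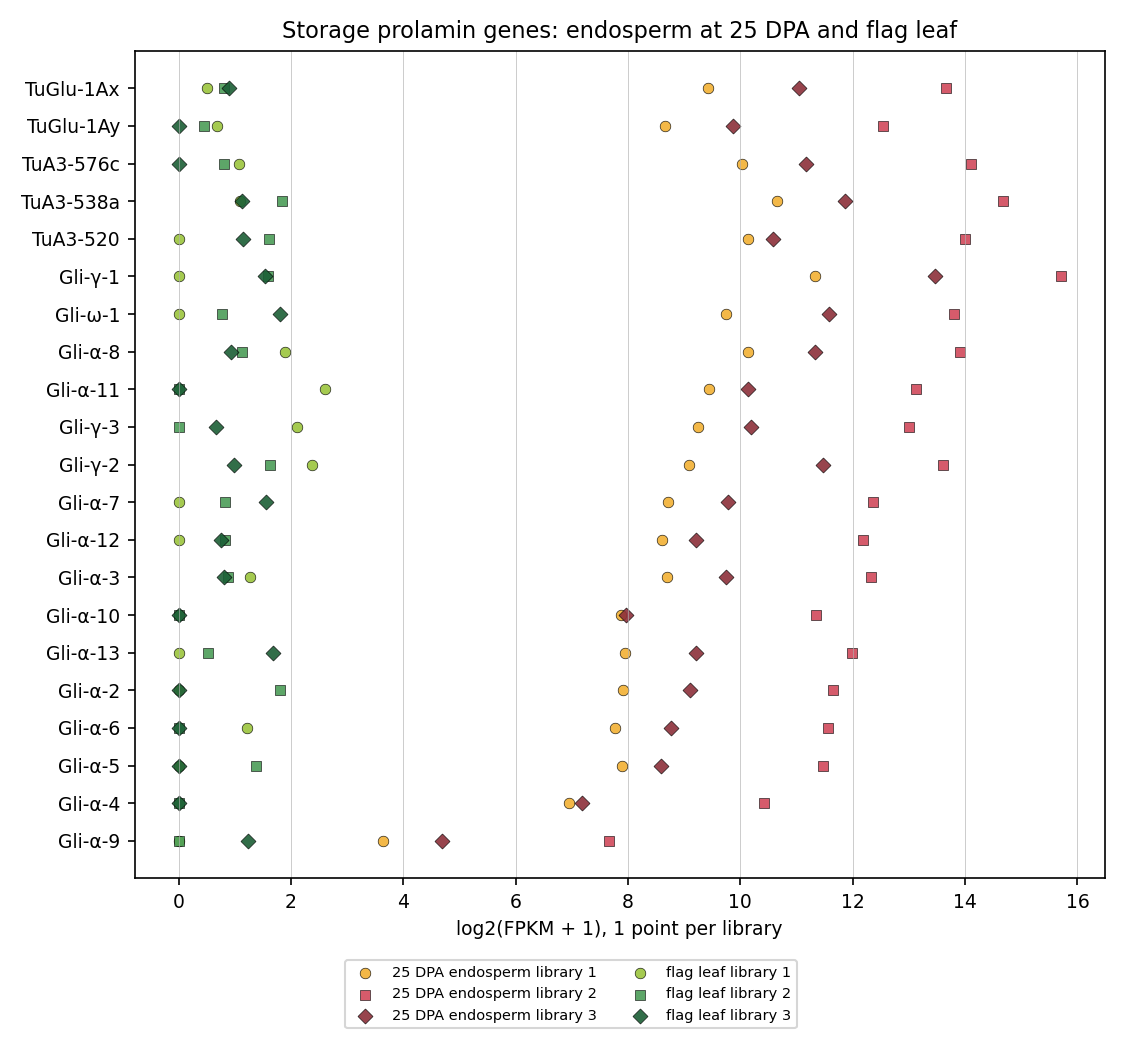
FPKM of the 21 storage prolamin genes on a log2(FPKM + 1) axis, 1 point per library, with 25 DPA endosperm in warm colours and flag leaf in greens. Every endosperm point lies to the right of every leaf point of the same gene, and 25 DPA library 2 is the highest for all 21.

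As a share of all FPKM, prolamins made up 0.382%, 12.1% and 1.99% of 25 DPA libraries 1, 2 and 3 and 0.000696%, 0.00102% and 0.000931% of the leaf libraries. The mean was 4.84% ± 6.38 (SD, n = 3) in endosperm and 0.000881% ± 0.000166 in leaf. The groups did not overlap, and the exact permutation test, two-sided, gave p = 0.1, the smallest that 3 against 3 allows (adjusted p = 0.15 over 6 shares). Gliadins took 0.248%, 7.85% and 1.43% of the endosperm total, the low molecular weight subunits 0.105%, 3.26% and 0.402%, and the high molecular weight subunits 0.0302%, 1.03% and 0.162%. Library 2 held the largest share of each kind. Without 25 DPA library 2 the difference in the prolamin share fell from 4.84 to 1.19 percentage points, so that library decided the mean.

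In the fit of all 6 libraries, the starch synthesis genes were called higher more often than all genes, and lower about as often as all genes. Of 28 listed genes 27 were tested, 5 were higher in late endosperm (18.5%, against 3.8% of all genes) and 6 were lower (22.2%, against 25.7%). The higher genes were TuAGPL-cyto, TuGBSSI, TuSBEI, TuSSIIa and TuDPE1. The lower genes were TuSPS1, TuUGPase, TuSuSy1, TuAGPL-plas2, TuPHO1 and TuSSIV. The median log2 difference of the 27 was −1.13, beside −1.04 over all genes. Without 25 DPA library 2, or without any 1 leaf library, only 1 starch gene was called higher. The starch genes' share of the total FPKM was 0.00411%, 0.0536% and 0.0182% at 25 DPA and 0.0241%, 0.0748% and 0.0887% in leaf, and these ranges overlapped (exact permutation p = 0.2, adjusted p = 0.24).

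TuAGPL-cyto is the large subunit of the cytosolic pyrophosphorylase, the enzyme that makes ADP-glucose outside the plastid in cereal endosperm. It had 28.7, 239 and 39.6 FPKM in 25 DPA libraries 1, 2 and 3 and 3.43, 2.85 and 5.15 in leaf, a log2 difference of 3.81 (limma adjusted p = 0.0121). Its plastidial counterpart TuAGPL-plas2 went the other way, with 0.3, 0.57 and 0 FPKM at 25 DPA and 26.5, 70.9 and 75.2 in leaf, a log2 difference of −5.39 (limma adjusted p = 0.00021). Neither subunit's groups overlapped, which held for 3.74% of all genes tested towards endosperm and 35.8% towards leaf. Neither small subunit was called on the values as deposited. TuAGPS-cyto had 13.3, 75.1 and 37.3 FPKM at 25 DPA and 41.2, 146 and 150 in leaf, with overlapping ranges and no call (limma adjusted p = 0.426). TuAGPS-plas2 had 1.03, 3.23 and 3.27 FPKM at 25 DPA and 0, 1.29 and 0.38 in leaf (limma adjusted p = 0.151), and was called higher after median-ratio scaling.

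Among the granule-bound synthases, which make amylose, TuGBSSI had 33.8, 73.5 and 2.17 FPKM in the late endosperm and was listed at 0 throughout leaf (limma adjusted p = 0.00213). TuGBSSII, the form known from leaf and other non-storage tissue in wheat, had 0.38, 21.3 and 34.1 FPKM at 25 DPA and 5.33, 17.6 and 8.39 in leaf, with a log2 difference of −0.01 (limma adjusted p = 0.996). The forms therefore stood in opposite order in the endosperm libraries: TuGBSSI was above TuGBSSII in libraries 1 and 2, and TuGBSSII was above TuGBSSI in library 3. The branching enzyme TuSBEI had 26.6, 270 and 36.8 FPKM at 25 DPA against 1.67, 5.19 and 3.71 in leaf, a log2 difference of 3.94 (limma adjusted p = 0.0108). TuSBEIIb, the endosperm branching enzyme, had 2.98, 4.24 and 0 FPKM at 25 DPA, was listed at 0 in leaf and did not pass the filter. The soluble synthase TuSSIIa had 1.87, 2.94 and 2.3 FPKM against 0.44, 0.26 and 0, a log2 difference of 1.45 (limma adjusted p = 0.0412). It was low in both tissues, without overlap. TuDPE1, the disproportionating enzyme, had 1.58, 30.2 and 5.24 FPKM at 25 DPA and 0, 0.37 and 0.33 in leaf, a log2 difference of 2.70 (limma adjusted p = 0.0148).

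Among the lower genes were 3 of sucrose metabolism. TuSPS1, sucrose phosphate synthase, which makes sucrose for export, had 0.85, 5.17 and 0.86 FPKM at 25 DPA and 203, 334 and 365 in leaf, a log2 difference of −6.72 (limma adjusted p = 0.000202). TuUGPase, which interconverts UDP-glucose and glucose 1-phosphate, had 10.9, 60.8 and 21.2 FPKM against 272, 382 and 487, a log2 difference of −3.87 (limma adjusted p = 0.0251). TuSuSy1, a sucrose synthase, had 2.05, 34.1 and 12.3 FPKM against 68.8, 125 and 178, a log2 difference of −3.37 (limma adjusted p = 0.044). In all 3 genes the highest endosperm library was below the lowest leaf library. TuSuSy2, the other sucrose synthase, was at 4.04, 4.73 and 3.15 FPKM at 25 DPA and 0.85, 1.26 and 1.78 in leaf, which do not overlap, and it was not called (limma adjusted p = 0.243). TuPHO1, a starch phosphorylase, had 0, 2.4 and 0 FPKM against 3.91, 14.9 and 12.8, and TuSSIV, the soluble synthase tied to granule initiation in Arabidopsis leaves, had 0.33, 1.05 and 2.8 against 6.43, 17.5 and 20. Their log2 differences were −2.77 and −2.71 (limma adjusted p = 0.0116 and 0.0197).

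**Figure D2:**
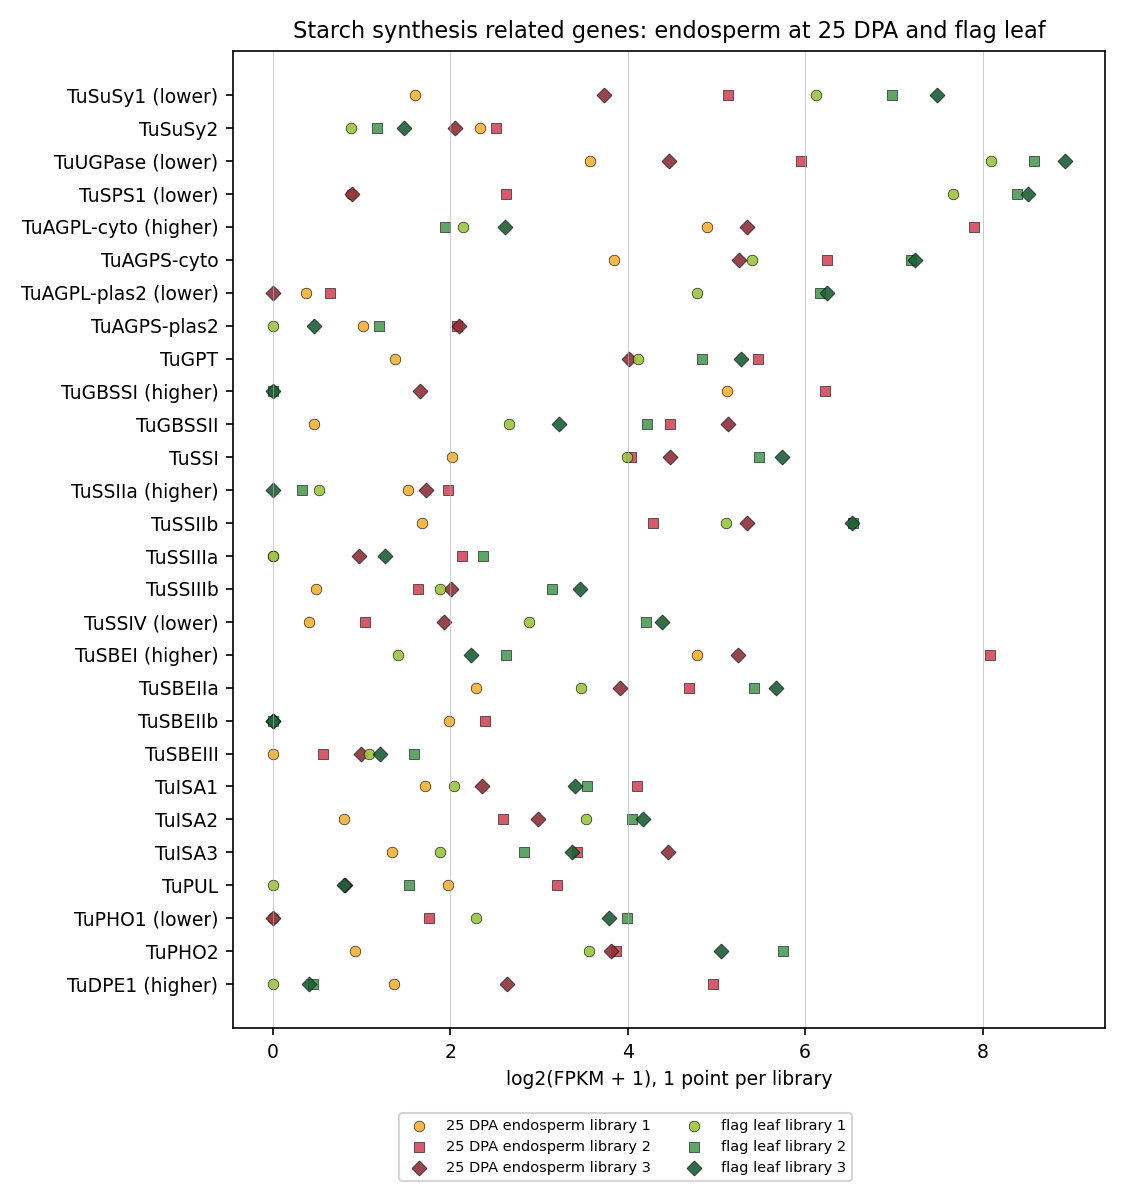
FPKM of the 28 starch synthesis related genes on a log2(FPKM + 1) axis, 1 point per library, ordered by step of the pathway, with called genes marked higher or lower in 25 DPA endosperm. TuSPS1 and TuAGPL-plas2 show the widest gaps towards leaf, TuSBEI and TuAGPL-cyto the clearest gaps towards endosperm, and many other genes overlap.

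Several of these starch calls were lost when 1 library was left out. Such a fit has fewer libraries, so a lost call need not mean that the library left out carried the difference. TuSBEI, TuAGPL-cyto and TuDPE1 lost the call without 25 DPA library 2 and without each leaf library in turn, with limma adjusted p of 0.0746 to 0.103, 0.0787 to 0.14 and 0.103 to 0.145. TuSSIIa lost it without 25 DPA library 2 or 3 or leaf library 2 or 3 (0.136 to 0.209), and TuGBSSI without leaf library 1 (0.0716). Of the lower genes, TuUGPase lost it without each leaf library (0.07 to 0.176), TuSuSy1 without 25 DPA library 3 or any leaf library (0.0586 to 0.234), TuPHO1 without 25 DPA library 3 or leaf library 2 or 3 (0.0735 to 0.0828), and TuSSIV without 25 DPA library 2 or leaf library 2 or 3 (0.0982 to 0.116). TuSPS1 and TuAGPL-plas2 kept the call in every such fit. The other 16 tested starch genes, TuAGPS-cyto, TuAGPS-plas2, TuGBSSII and TuSuSy2 above among them, were not called. After median-ratio scaling 7 genes were higher and 7 lower of 25 tested, against 14.8% and 30.7% of all genes.

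Among the individually named regulators that were tested, TuGAMYB was the one called against leaf in the fit of 6 libraries. The set is mixed and not limited to transcription factors, and it holds the folding enzyme TuPdi and the ribosomal protein TuQM. Of the 12 listed, 8 were tested, 1 was higher and 0 were lower by limma, against 3.8% and 25.7% of all genes, with the same counts at an unadjusted p under 0.05 and after median-ratio scaling. TuGAMYB (TRIUR3_27104), a MYB factor that in barley binds promoters of storage protein and hydrolase genes, had 2.57, 27 and 29.3 FPKM at 25 DPA and 1.21, 0.36 and 1.27 in leaf. Its log2 difference was 2.93 (limma adjusted p = 0.0194), with no overlap. The call was lost without 25 DPA library 2 or 3 and without each leaf library (limma adjusted p of 0.0749 to 0.178). TuWPBF (TRIUR3_33098), the Dof factor that binds the prolamin box, had 3.49, 12.8 and 0.64 FPKM at 25 DPA. TuSPA (TRIUR3_18984), a bZIP activator of glutenin genes, had 0.41, 6.22 and 1.04 FPKM at 25 DPA. Both were listed at 0 in all leaf libraries, and both followed the prolamins in being highest in library 2. Neither passed the filter, so neither was tested against leaf in that fit. Without 25 DPA library 1, TuSPA passed it and was called higher (log2 difference 1.94, limma adjusted p = 0.0317). TuPdi (TRIUR3_24343), a protein disulfide isomerase that helps secreted proteins fold, had 17.8, 174 and 204 FPKM at 25 DPA and 108, 287 and 311 in leaf (limma adjusted p = 0.54). TuQM (TRIUR3_30652), a protein of the large ribosomal subunit, had 23.8, 319 and 491 FPKM against 125, 259 and 306 (limma adjusted p = 0.854). For TuPdi and TuQM library 1 lay below leaf and the other endosperm libraries within or above its range.

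Transcription factors as a whole were called about as often as all genes. Of 1099 listed family members 541 passed the filter, 28 were higher at 25 DPA (5.18%, against 3.8% of all genes tested) and 149 were lower (27.5%, against 25.7%). Their median log2 difference was −1.15, beside −1.04 over all genes. After median-ratio scaling 84 were higher and 164 lower of 517, against 14.8% and 30.7% of all genes. Without 25 DPA library 1, 103 were higher and 146 lower of 659, against 11.3% and 21.3% of all genes. The count of higher members was 12, 14 and 16 without leaf library 1, 2 and 3. Their share of total FPKM was 0.017%, 0.416% and 0.477% at 25 DPA and 0.18%, 0.543% and 0.687% in leaf (exact permutation p = 0.5, adjusted p = 0.5). Families differed widely in the share of tested members called, and those shares are descriptions of filtered lists of unequal size.

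Among families with 7 or more tested members, with the 2 MADS groups counted as 1, the largest shares of lower members were in NF-YA, MADS, NAC and G2-like. NF-YA factors are the DNA-contacting subunits of the NF-Y complex, and 6 of 7 were lower and 0 higher by limma, also after median-ratio scaling and at an unadjusted p under 0.05. Of 47 tested NAC genes, a large plant family with members in leaf senescence and in grain filling, 25 were lower and 5 higher, and 22 and 7 after scaling. Of 21 tested G2-like genes, the family that holds the GLK regulators of chloroplast development, 11 were lower and 0 higher by limma, 12 and 1 after scaling, and 13 and 1 at an unadjusted p under 0.05. Of 12 tested MADS genes 8 were lower and 1 higher, and 8 and 0 after scaling. WRKY genes, many of which respond to pathogens and senescence, had 17 lower and 0 higher of 42 by limma. After scaling 20 were lower and 3 higher, and at an unadjusted p under 0.05 on the values as deposited 23 and 0. At the other end, 0 of 23 C3H and 0 of 12 ARF genes were called in either direction by limma on the values as deposited, and 2 C3H and 3 ARF genes were lower at an unadjusted p under 0.05. After scaling 6 C3H genes were higher and 2 lower, and 2 ARF genes were higher and 2 lower. For all families these counts stand beside 3.8% higher and 25.7% lower over all genes as deposited, and 14.8% and 30.7% after scaling.

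**Figure D3:**
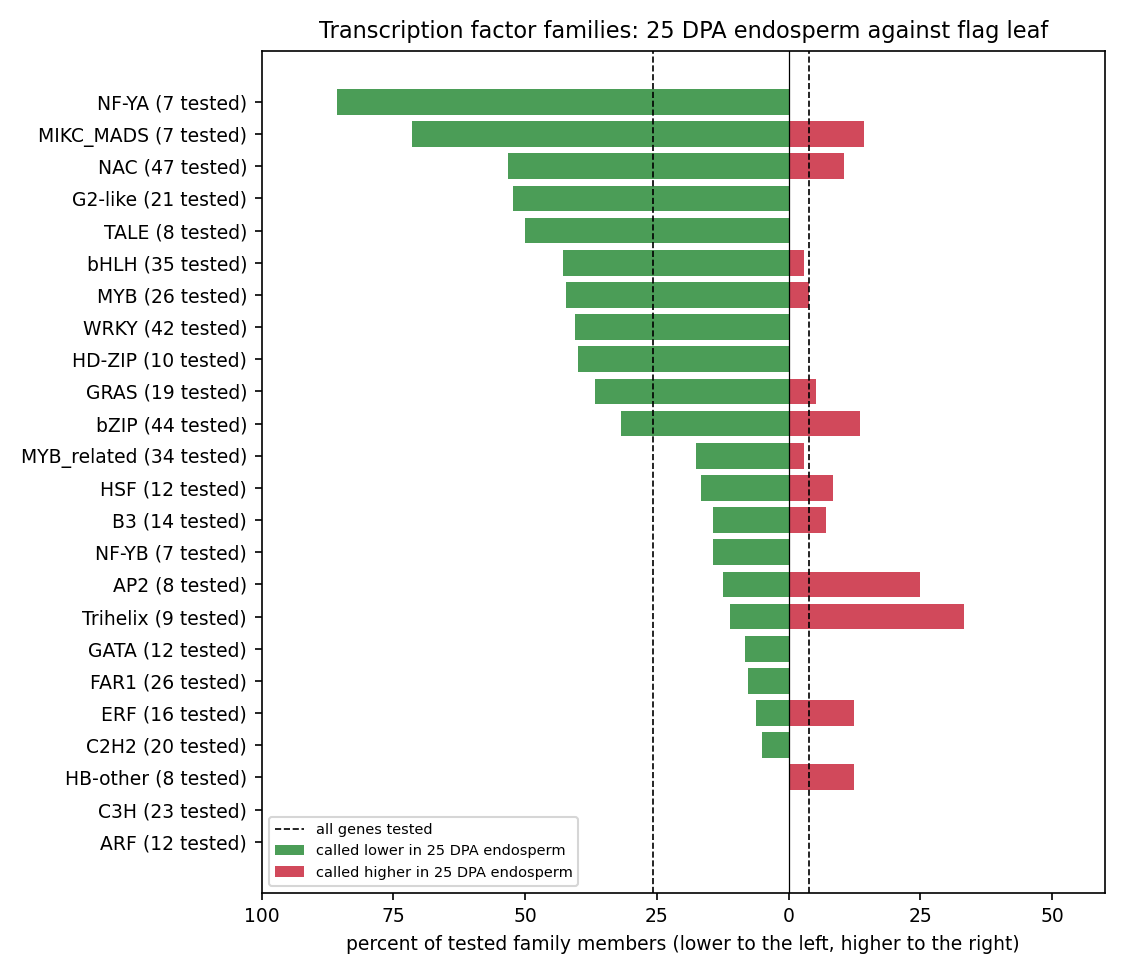
Percent of tested members of each transcription factor family (families with 7 or more tested) called lower (left, green) or higher (right, red) in 25 DPA endosperm than in flag leaf. Dashed lines mark the 25.7% lower and 3.8% higher over all genes tested. NF-YA has 85.7% lower, while Trihelix has 33.3% and AP2 25.0% higher.

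The largest fall among the factors was of a gene listed at 0 in late endosperm, and several others were at or near 0. The bZIP gene TRIUR3_12850 was listed at 0 in every 25 DPA library and had 273, 429 and 414 FPKM in leaf (limma adjusted p = 2.54e-05). The MYB-related gene TRIUR3_10842 was also listed at 0 throughout 25 DPA and had 102, 185 and 142 FPKM in leaf (limma adjusted p = 3.83e-05). The NF-YC gene TRIUR3_09240 showed 0 against 71.7, 89.5 and 97.2 FPKM (limma adjusted p = 5.25e-05). All 3 were listed at 0 in late endosperm, and so was the WRKY gene TRIUR3_29889, at 47.6, 61.4 and 107 FPKM in leaf (limma adjusted p = 6.85e-05). Genes at 0 throughout 25 DPA passed the filter only through leaf, which fixed their direction. The NAC gene TRIUR3_04286 had 0, 3.84 and 1.37 FPKM at 25 DPA and 175, 229 and 209 in leaf, a log2 difference of −6.50 (limma adjusted p = 0.000202). The NAC gene TRIUR3_21221 had 0, 0 and 1.31 FPKM against 84.7, 92.5 and 95.2, a log2 difference of −6.12 (limma adjusted p = 0.000115). Their leaf libraries were close to each other, and no endosperm library reached 4 FPKM.

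The G2-like genes with the highest means were TRIUR3_07027, at 0, 0.57 and 0 FPKM against 50.5, 113 and 129, and TRIUR3_20779, at 0, 0.39 and 1.55 against 55.9, 65.3 and 139. Their log2 differences were −6.30 and −5.73 (limma adjusted p = 8.58e-05 and 0.000216). The MYB gene TRIUR3_22432 had 0.61, 0 and 0 FPKM against 74, 113 and 53.8, and the MYB-related gene TRIUR3_34187 had 0, 0 and 0.87 against 61.2, 93.7 and 85.4. Their log2 differences were −6.05 and −6.02 (limma adjusted p = 9.81e-05 and 0.000107). With TuSPS1 these made up the 10 largest falls among annotated genes, apart from TRIUR3_20779, which is named for its level. Lack of overlap with leaf was a condition for choosing those 10, so it is no separate result.

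Within NF-Y, 6 NF-YA genes were lower and 1 NF-YC gene was higher. Of the NF-YA genes, TRIUR3_22025 had 1.04, 3.95 and 1.99 FPKM at 25 DPA and 37.7, 52.4 and 69.9 in leaf, a log2 difference of −4.08 (limma adjusted p = 0.00337). TRIUR3_09920 had 0.7, 1.36 and 1.84 FPKM against 38.3, 63.4 and 61.3, a log2 difference of −4.59 (limma adjusted p = 0.00103). TRIUR3_08409 had 1.16, 4 and 3.9 FPKM against 11.1, 29.1 and 41.8, a log2 difference of −2.73 (limma adjusted p = 0.0361). That last call was lost without 25 DPA library 2 or 3 or leaf library 2 or 3, with adjusted p of 0.0582 to 0.194. Among the NF-YC genes, histone-fold partners of the complex, TRIUR3_29815 went the other way from TRIUR3_09240. It had 17.6, 371 and 44.5 FPKM at 25 DPA, and leaf was listed at 0 (limma adjusted p = 0.000276). A further NF-YC gene, TRIUR3_12611, had 5.29, 54.1 and 68.7 FPKM at 25 DPA and 84.3, 101 and 84.8 in leaf and was not called (limma adjusted p = 0.381).

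Of the 28 transcription factors called higher, 18 were listed at 0 in every leaf library. The same held for 289 of the 511 unannotated genes called higher, so it is not particular to these factors. A gene at 0 throughout leaf passed the filter only if all 3 endosperm libraries reached 1 FPKM. Its direction and lack of overlap were therefore set by the filter. The bZIP gene TRIUR3_31111 had 18.1, 255 and 511 FPKM at 25 DPA, with leaf listed at 0 (limma adjusted p = 0.00016). All 5 higher NAC genes were at 0 in leaf. TRIUR3_00447 had 13, 575 and 122 FPKM at 25 DPA (limma adjusted p = 0.000291). The other 4 NAC genes were singled out after their values were seen. TRIUR3_01582 had 13, 390 and 98.6 FPKM, TRIUR3_23644 had 14.5, 234 and 21.2, TRIUR3_25136 had 8.75, 176 and 31.6, and TRIUR3_25137 had 4.47, 47.3 and 8.31. Their limma adjusted p ran from 0.000274 to 0.00161. All 5 were highest in library 2, whereas the most abundant NAC gene not called, TRIUR3_14109, was highest in library 3, with 6.16, 135 and 182 FPKM at 25 DPA and 57.7, 97.2 and 234 in leaf (limma adjusted p = 0.666).

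The Trihelix family, named for light-responsive GT factors, held 3 higher and 1 lower of 9 tested, against 3.8% and 25.7% of all genes. TRIUR3_30093 had 7.46, 79.9 and 239 FPKM at 25 DPA and 0, 1.25 and 0 in leaf, a log2 difference of 5.38 (limma adjusted p = 0.0011). TRIUR3_29570 had 3.58, 37.2 and 77.3 FPKM against 0, 0.42 and 1.11, a log2 difference of 4.05 (limma adjusted p = 0.00406). Both were highest in library 3. Without leaf library 1 their adjusted p were 0.0576 and 0.0897, and without leaf library 2 that of TRIUR3_29570 was 0.0599. The heat shock factor TRIUR3_19198 had 5.63, 60.9 and 98.6 FPKM against 2.68, 3.18 and 2.82, a log2 difference of 3.15 (limma adjusted p = 0.0342). That call was lost without 25 DPA library 2 or 3 or any leaf library (adjusted p of 0.118 to 0.19). The heat shock family had 1 higher and 2 lower of 12, 6 and 2 of 13 after median-ratio scaling, and 8 and 2 of 16 without 25 DPA library 1. Over all genes, 3.8% were higher and 25.7% lower, 14.8% and 30.7% after scaling, and 11.3% and 21.3% without that library. Its second abundant member, TRIUR3_12841, had 2.4, 79.5 and 144 FPKM against 4.41, 6.13 and 5.46, with library 1 below leaf and libraries 2 and 3 above it (limma adjusted p = 0.166). The ERF gene TRIUR3_11943, the bZIP gene TRIUR3_08598 and the B3 gene TRIUR3_22986 were picked after their values were seen. They had 6.13, 94.6 and 202 FPKM, 3.49, 54.6 and 79.7 FPKM, and 2.98, 26.9 and 59.7 FPKM at 25 DPA, with no leaf value above 0.35 FPKM (limma adjusted p = 0.000582, 0.00153 and 0.00149). Without leaf library 1 the latter 2 had adjusted p of 0.0589 and 0.0513.

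The 25 DPA libraries disagreed on which of these genes were high. Over 8815 tested genes above 0 in all 3, the median ratio of library 2 to library 3 was 0.702, that of library 2 to library 1 was 8.2, and that of library 3 to library 1 was 11.1. Prolamins had a median ratio of library 2 to library 3 of 6.91, from 4.39 to 10.7, and of library 3 to library 1 of 2.18, from 1.06 to 5.26. Thus library 3, typically above library 2, was below it for all 21 prolamins. Library 2 was above library 3 in 27.4% of the genes tested, in 19 of 28 starch genes, in all 5 called higher, and in all 5 NAC genes called higher. By contrast, the 3 Trihelix, 2 AP2 and 1 heat shock genes called higher were above it in library 3. The high molecular weight glutenins had library 2 to library 3 ratios of 6.19 and 6.37, and the low molecular weight ones of 7.04 to 10.7.

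**Figure D4:**
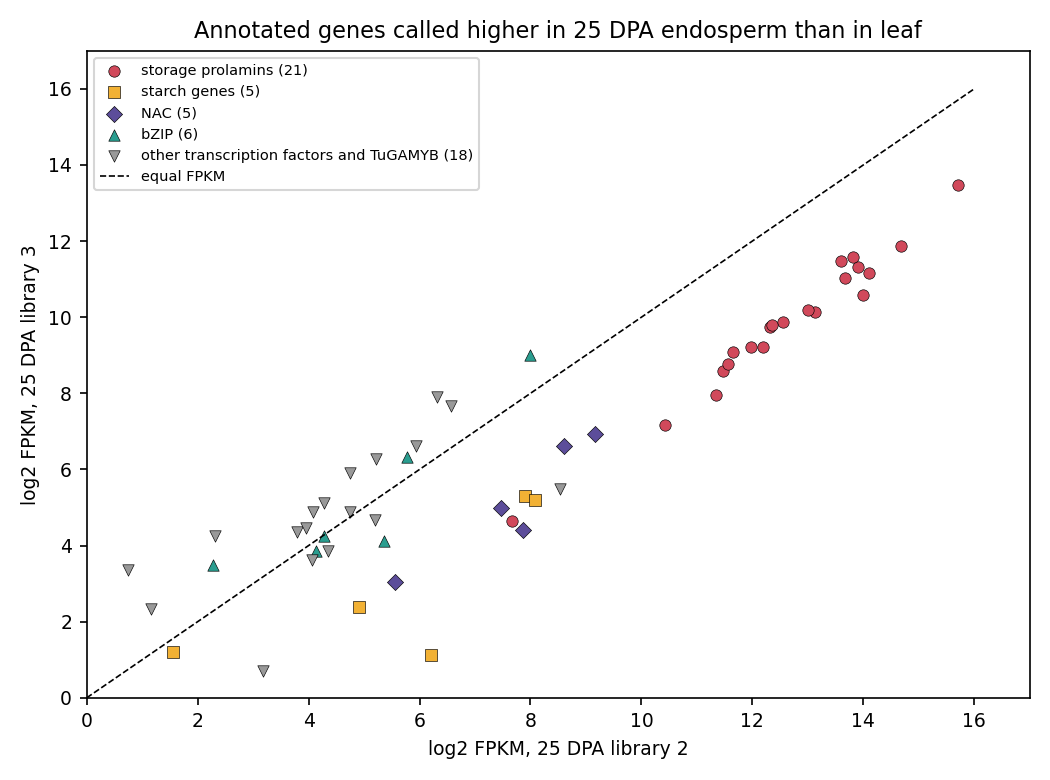
Log2 FPKM in 25 DPA library 2 (x axis) and library 3 (y axis) for the 55 annotated genes called higher at 25 DPA than in leaf, 1 point per gene, with a dashed line of equal values. Prolamins, starch genes and NAC genes lie below the line, and bZIP and other factors on both sides of it.

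Of the 566 genes called higher, 191 were higher in library 2 than in library 3 and 375 the other way. These sets were divided by the 25 DPA values, so their levels elsewhere are a description. Those higher in library 2 had medians of 49.1 to 65.8 FPKM at 10 DPA, 48.4 to 54.4 at 15 DPA and 3.18 to 5.05 at 20 DPA. Those higher in library 3 had medians of 3.64 to 4.48 FPKM at 10 DPA, 12.9 to 14.3 at 15 DPA and 1.68 to 2.71 at 20 DPA, and then 4.3, 52.7 and 91.7 in the 25 DPA libraries. The medians of the first set at 10 and 15 DPA were near that of 25 DPA library 2, 65.2 FPKM, and above those of libraries 1 and 3, 3.85 and 22.2. The second set's medians in 25 DPA libraries 2 and 3 were above its medians at 10, 15 and 20 DPA, and that of library 1 was above those at 20 DPA and below those at 15 DPA. What sets the libraries apart was not tested.

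The same genes were then set against endosperm of 10 DPA, which asks whether the distance to leaf differs between the stages. Since both distances share the leaf libraries, the test is that of 25 against 10 DPA, in a fit of 9 libraries with leaf. Of 17746 genes tested, 325 were higher at 25 than at 10 DPA (1.83%) and 2954 were lower (16.6%), with a median log2 difference of −0.81. After median-ratio scaling these were 1622 (9.48%) and 3488 (20.4%), with a median of −0.30, and without 25 DPA library 1 1656 (8.45%) and 2963 (15.1%). The count of lower genes was 1858 and 1952 without 10 DPA library 1 and 2, and the counts of higher genes were 193 and 204 without 25 DPA library 2 and 3 and 156, 143 and 160 without 10 DPA library 1, 2 and 3.

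Starch genes were lower at 25 than at 10 DPA more often than not. Of 28 tested, 17 were lower and 0 higher by limma (19 and 0 at an unadjusted p under 0.05), against 16.6% and 1.83% of all genes, and 17 were lower after median-ratio scaling and without 25 DPA library 1, each with 2 higher. TuSuSy2 went from 1700, 1741 and 1753 FPKM at 10 DPA to the 3.15 to 4.73 FPKM of 25 DPA, a log2 difference of −8.46 (limma adjusted p = 8.42e-06). TuSSIIa had 191, 184 and 218 FPKM at 10 DPA (log2 difference −5.89, limma adjusted p = 2.38e-05). Both genes fell to a few FPKM in every 25 DPA library. TuGBSSI had 898, 881 and 1245 FPKM at 10 DPA (log2 difference −5.63, limma adjusted p = 0.00254), and TuSBEIIb 128, 116 and 150 (log2 difference −5.58, limma adjusted p = 0.000135). TuAGPS-cyto, went from 518, 533 and 548 FPKM at 10 DPA to 13.3, 75.1 and 37.3 at 25 DPA (log2 difference −3.94, limma adjusted p = 0.0098). TuSBEI had 488, 498 and 680 FPKM at 10 DPA (log2 difference −3.07, limma adjusted p = 0.0424). It was not called after median-ratio scaling (adjusted p = 0.076), nor without any 1 library of 10 DPA or leaf or without 25 DPA library 3 (0.0638 to 0.148). Of the genes higher in leaf, TuSPS1 and TuAGPL-plas2 were at 34.3 to 50.6 and 14.6 to 16.5 FPKM at 10 DPA. They were also lower at 25 DPA (log2 differences −4.0 and −3.72, limma adjusted p = 0.00306 and 0.00135).

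Among prolamins 8 of 21, all gliadins, were lower at 25 than at 10 DPA and 0 were higher, against 16.6% and 1.83% of all genes. The median log2 difference of the 21 was −3.04. After median-ratio scaling 5 of the 21 were lower, against 20.4% of all genes tested. Gli-α-10 had 7897, 8165 and 7499 FPKM at 10 DPA (log2 difference −3.88, limma adjusted p = 0.0177). Gli-γ-1 had 53330, 52690 and 52671 FPKM at 10 DPA and was not called (limma adjusted p = 0.183), with 25 DPA library 2 at the 10 DPA level and libraries 1 and 3 below it. The prolamin count changed when 1 library was left out, in fits that hold fewer libraries. It was 20 without 25 DPA library 2 and 1 without 25 DPA library 3. With any 1 of the 10 DPA libraries left out it was 0, and without leaf library 1, 2 and 3 it was 5, 4 and 4. At an unadjusted p under 0.05, limma had 18 of 21 lower and 0 higher in the fit of all 9 libraries.

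Of 11 tested genes in the mixed set of named regulators, 5 were lower at 25 than at 10 DPA by limma and 0 higher. Over all genes tested the shares were 16.6% and 1.83%. The counts were the same at an unadjusted p under 0.05 and after median-ratio scaling. Tuglup3 (TRIUR3_18628), whose rice namesake is a processing enzyme of glutelin precursors, had 1012, 1036 and 1054 FPKM at 10 DPA and 1, 5.93 and 0 at 25 DPA (log2 difference −8.75, limma adjusted p = 1.55e-05). TuPdi had 2615, 2835 and 2558 FPKM at 10 DPA (log2 difference −4.93, limma adjusted p = 0.00534), and TuWPBF 117, 138 and 127 (log2 difference −4.78, limma adjusted p = 0.000801). TuSPA and Tuglup2 were the others (log2 differences −2.74 and −2.11, limma adjusted p = 0.0066 and 0.0429). The call of Tuglup2 (TRIUR3_21622) was lost in 7 fits that left out 1 library, each of the 10 DPA libraries, 25 DPA library 1 or 2 and leaf library 2 or 3 (limma adjusted p of 0.06 to 0.146), and with no filter, a pseudocount of 0.1 or total scaling (0.0631, 0.101 and 0.0744). TuGAMYB was not called, at 41.6, 44.8 and 56.7 FPKM at 10 DPA (limma adjusted p = 0.174).

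Of 674 transcription factors tested against 10 DPA, 8 were higher and 116 lower at 25 DPA (against 1.83% and 16.6% of all genes tested). TRIUR3_00447 had 171, 188 and 235 FPKM at 10 DPA and was not called (limma adjusted p = 0.585). The bZIP gene TRIUR3_31111 had 58.2, 56.8 and 67.9 FPKM at 10 DPA (limma adjusted p = 0.492), with 25 DPA library 1 below and libraries 2 and 3 above. It was called higher after median-ratio scaling and without 25 DPA library 1. The heat shock factor TRIUR3_19198 had 0.29, 0.82 and 0.29 FPKM at 10 DPA and was higher at 25 DPA (log2 difference 4.57, limma adjusted p = 0.00295). The ERF gene TRIUR3_11943 had 2.63, 2.5 and 3.22 FPKM at 10 DPA and was also higher (log2 difference 3.78, limma adjusted p = 0.0197), a call lost without any 10 DPA library or without 25 DPA library 2 or 3 (adjusted p of 0.0549 to 0.0987). TRIUR3_17017, the gene farthest above leaf, had 0, 0 and 8.02 FPKM at 10 DPA and 4109, 6034 and 5951 at 15 DPA before its 25 DPA values (log2 difference to 10 DPA 13.51, limma adjusted p = 4.1e-05).

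**Figure D5:**
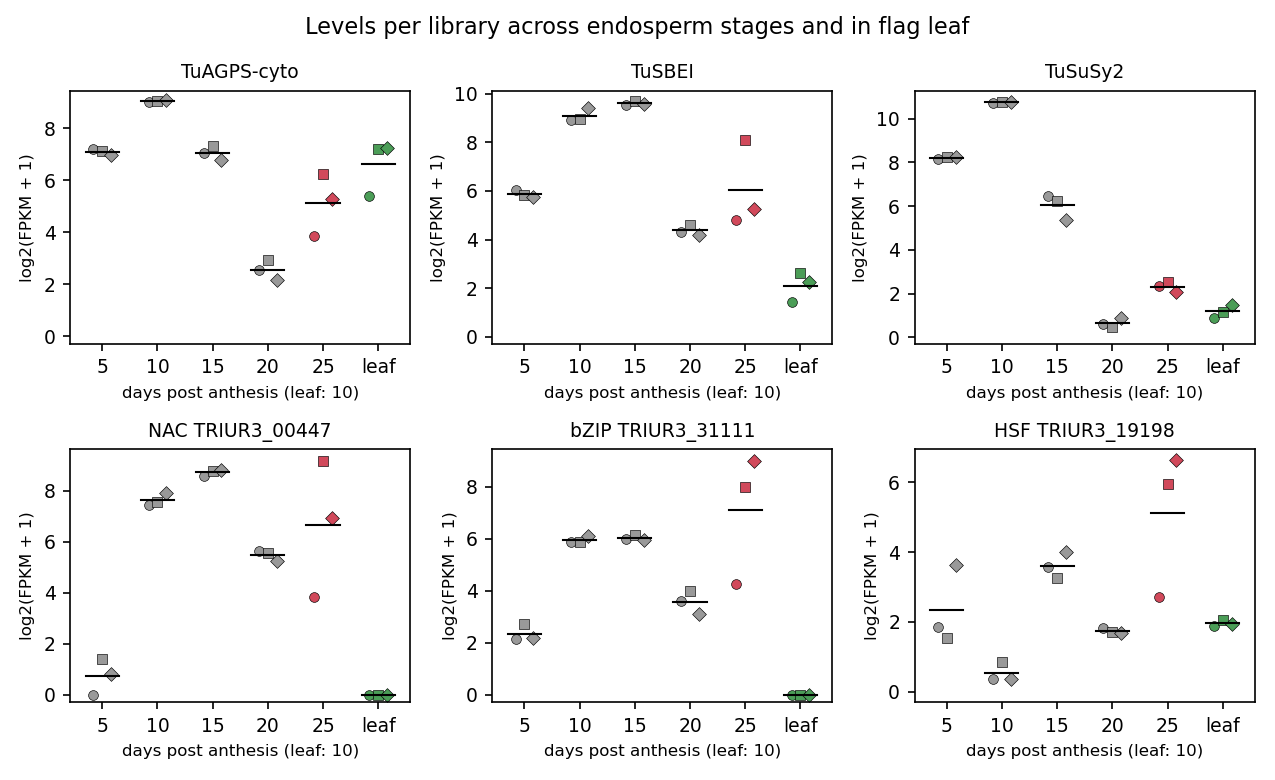
Levels of 6 genes on a log2(FPKM + 1) axis in each library of endosperm at 5 to 25 DPA and of flag leaf, with black bars for the mean of the 3 libraries, 25 DPA in red and leaf in green. TuAGPS-cyto, TuSBEI and TuSuSy2 peak at 10 or 15 DPA, TRIUR3_00447 and TRIUR3_31111 are at 0 in leaf, and TRIUR3_19198 is highest in 25 DPA libraries 2 and 3.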

How the data were processed

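The authors' deposited table gives FPKM for 27121 genes in 18 libraries, per the file headers, and 0 columns of values were left unused. It annotates 1160 genes, and the other 25961 carry an identifier only. The submitters' processing notes name Bowtie 0.12.2. Not given in the sources used here are the counting program, the build and the gene models, and sequences of these genes were not used here. Depth in reads is unknown. Of the genes above 0 in at least 9 libraries, 78 hold the values of another gene in all libraries, 0 of them annotated, so related genes may share reads.

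The fits were run by limma 3.58.1 (R 4.3.3), with a trend of variance on mean, after taking log2(FPKM + 1). The fit of 6 libraries, or of 9 with 10 DPA endosperm, took genes that reached 1 FPKM in 3 or more libraries. A fit that left a library out asked for as many libraries as its smallest group. Limma p-values weigh the difference between group means against the spread between 3 libraries a group. That spread is pooled over the groups of a fit, though groups may differ in it. Shares of total FPKM were compared by an exact permutation test.

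The groups, gene classes, markers and tests were chosen with earlier results of these data known. Named genes are the 10 largest rises and falls among annotated calls whose higher tissue averaged 10 FPKM or more and whose libraries did not overlap, the prolamins, starch genes and named regulators, up to 3 members of each transcription factor family by level, and the 2 unannotated genes at each extreme. The 10 largest rises were all prolamins. Alternatives were other pseudocounts, filters and scalings, no variance trend, all 18 libraries, and each library left out.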

Additional observations from a re-analysis of the deposited data

Results flagged for a closer look

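The difference from leaf was other at 25 than at 10 DPA for 3279 genes in the limma fit of 9 libraries. The values that follow are log2 differences of 25 DPA minus 10 DPA endosperm. They cover some of the annotated genes that passed that test, and the unannotated genes singled out. In starch synthesis all were negative, with −8.46 for TuSuSy2, −5.89 for TuSSIIa, −5.63 for TuGBSSI, −5.58 for TuSBEIIb and −5.30 for TuPHO1. TuSuSy1 had −4.56, TuSPS1 −4.0, TuAGPS-cyto −3.94, TuPUL −3.91, TuSSIIIa −3.80 and TuAGPL-plas2 −3.72. TuSBEIIa had −3.47, TuISA1 and TuUGPase −3.08, TuSBEI −3.07, TuISA2 −2.91 and TuAGPS-plas2 −2.90. Among the prolamins Gli-α-5 had −4.08, Gli-α-10 −3.88, Gli-α-4 −3.69, Gli-α-12 −3.68 and Gli-α-11 −3.66. Gli-γ-3 and Gli-α-2 had −3.38, and Gli-α-9 had −3.18. With any 1 of the 10 DPA libraries left out, 0 prolamins were called lower. After median-ratio scaling Gli-α-11 and Gli-γ-3 were not called (limma adjusted p = 0.0868 and 0.08).

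Several of these calls were lost when 1 library was left out, by limma adjusted p. Without any 10 DPA library, taken in turn, TuISA1 had 0.0557 to 0.0737, TuISA2 0.0502 to 0.0606 and TuSBEIIa 0.0689 to 0.0733. Without any 10 DPA library or without leaf library 2 or 3, TuUGPase had 0.0503 to 0.0905, and it had 0.053 with total scaling. TuSBEI was lost in 7 such fits, each except those without 25 DPA library 1 or 2 (0.0638 to 0.148), and had 0.076 with median-ratio scaling, 0.0544 with no filter, 0.057 with a pseudocount of 0.1 and 0.0711 with total scaling. TuAGPS-plas2 and TuSSIIIa had 0.056 and 0.0509 with a pseudocount of 0.1. Gli-α-10 was lost without any 10 DPA library or 25 DPA library 3 (0.0511 to 0.0766). Gli-α-9 was lost in 8 of these fits, each except that without 25 DPA library 2 (0.0587 to 0.15), and had 0.0577 with median-ratio scaling, 0.0617 with no filter, 0.133 with a pseudocount of 0.1 and 0.0671 with total scaling.

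Among the named regulators, Tuglup3 (TRIUR3_18628) had −8.75, TuPdi (TRIUR3_24343) −4.93, TuWPBF (TRIUR3_33098) −4.78, TuSPA (TRIUR3_18984) −2.74 and Tuglup2 (TRIUR3_21622) −2.11. The NF-YA genes TRIUR3_22025 and TRIUR3_08409 had −4.55 and −3.37. The G2-like gene TRIUR3_07027 had −2.99, the TALE gene TRIUR3_32159 −2.70 and the NAC gene TRIUR3_21221 −2.32. The MYB-related gene TRIUR3_10842, the NF-YC gene TRIUR3_09240 and the YABBY gene TRIUR3_18590 were listed at 0 in every 25 DPA library and had limma adjusted p of 0.00836, 0.0453 and 0.0003. Their 10 DPA values were 9.81, 6.74 and 2.71 FPKM, 1.98, 1.87 and 2.04 FPKM, and 18.3, 8.08 and 8.27 FPKM. Of these calls, that of TRIUR3_32159 was lost without any 10 DPA library, 25 DPA library 2 or leaf library 2 or 3 (limma adjusted p of 0.0523 to 0.145), and with no filter, a pseudocount of 0.1 or total scaling (0.0514, 0.0593 and 0.0873). TRIUR3_21221 was lost without 10 DPA library 1 or 3 or 25 DPA library 2 (0.092 to 0.141), and with a pseudocount of 5 or total scaling (0.102 and 0.0606). TRIUR3_09240 was lost without any 10 DPA library, 25 DPA library 2 or 3 or leaf library 2 (0.0521 to 0.145), and at 5 FPKM, with a pseudocount of 5 or with total scaling (0.0603, 0.35 and 0.104). TRIUR3_10842 had 0.0567 without 10 DPA library 1 and 0.0826 with a pseudocount of 5.

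Upward differences were 13.51 for TRIUR3_17017, 4.80 for TRIUR3_15929, 4.57 for the heat shock factor TRIUR3_19198 and 3.78 for the ERF gene TRIUR3_11943. The call of TRIUR3_15929 was lost without any 10 DPA library or 25 DPA library 2 (limma adjusted p of 0.0505 to 0.0773), and that of TRIUR3_11943 also with total scaling (0.0551). The leaf-abundant unannotated genes TRIUR3_29711 and TRIUR3_12282 had −9.46 and −9.08.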

How the results depend on the processing

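No paired analysis was possible because the column headings carry no replicate number of the labels. For genes higher and lower against leaf, the counts were 566 and 3826; a filter at 5 FPKM gave 275 higher, median-ratio scaling 2126, total scaling outside the 20 most abundant genes 1368, and all 18 libraries 1243 and 6328 (7571 in all, against 4392). Without library 1 of both groups there were 2155 and 5966 (8121 in all). Leaving out 1 library gave 298 to 1954 higher, 2499 to 4314 lower and 2814 to 5640 in all. Prolamins stayed at 20 to 21 of 21. Starch genes higher were 3 with no filter and with no trend, 2 at 5 FPKM and with total scaling, and 1 to 5 with 1 library left out; those lower were 3 with total scaling, 10 with all libraries, 12 without both libraries 1 and 2 to 6 with 1 left out. Transcription factors higher were 9 at 5 FPKM, 84 with median-ratio scaling, 65 with scaling outside the 20 genes, 64 with all libraries, 104 without both libraries 1 and 12 to 103 with 1 left out; those lower were 235, 226 and 104 to 176 in the last 3 settings. Against 10 DPA, calls were 5110 with median-ratio scaling (1622 higher), 6401 without both libraries 1 (2320 higher) and 2014 to 4619 with 1 library left out (143 to 1656 higher, 1858 to 3317 lower), and the higher genes were 175 and 1024 under both total scalings. Prolamins lower at 25 DPA were 2 with a pseudocount of 0.1, 4 with no filter, 5 with median-ratio and with total scaling, 14 with scaling outside the 20 genes, 13 with no trend, and 0 to 20 with 1 library left out; starch genes lower were 12 to 19. Outside the 20 most abundant genes the share differences were 14.1, 9.28, 3.69 and 1.18 percentage points for prolamins, gliadins, low and high molecular weight glutenins, −0.0574 for starch genes and −0.211 for transcription factors. With 1 library left out they ran from 1.19 to 7.07, 0.837 to 4.64, 0.253 to 1.83, 0.0961 to 0.596, −0.0565 to −0.0242 and −0.311 to −0.0231. TuGBSSII against 10 DPA had a log2 difference of −0.0 and no call in the fit of 9 libraries. Without both libraries 1 it had 1.45 and was called (limma adjusted p = 0.021). The cause of these changes was not tested. Of 1322 values of 84 named genes against leaf under the alternatives, 73 lost the call, 23 gained one and 0 reversed. Against 10 DPA, of 1580 values of 88 genes, 90 lost the call, 52 gained one and 1 changed sign. That 1 was TuGBSSII as given above, so no call was turned round. Depth is unknown, so no floor can be set for a gene listed at 0.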

Other observations

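Single genes of the TALE, MADS and NF-YB families with high leaf levels were further examples of leaf factors low in late endosperm. Of tested members, 4 of 8 TALE, 8 of 12 MADS and 1 of 7 NF-YB genes were lower, against 25.7% of all genes. Higher were 0, 1 and 0 of them, against 3.8%. The TALE gene TRIUR3_32159 had 0.46, 5.37 and 6.02 FPKM at 25 DPA and 61.3, 144 and 222 in leaf, a log2 difference of −4.97 (limma adjusted p = 0.00229). The MADS gene TRIUR3_21876 had 0.56, 0.54 and 0 FPKM against 32.8, 64.3 and 58, a log2 difference of −5.24 (limma adjusted p = 0.000232), and the MADS gene TRIUR3_32699 was listed at 0 in every 25 DPA library against 12.3, 30.5 and 49.7 (limma adjusted p = 0.000256). The NF-YB gene TRIUR3_16080 had 0, 2.39 and 3.23 FPKM against 26.6, 61.1 and 43.8, a log2 difference of −4.13 (limma adjusted p = 0.00303). In these 4 genes no endosperm library reached the lowest leaf library, which held for 35.8% of all genes tested.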
